A study of Mus musculus with 12 samples.

Results

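The mouse mitochondrial genome carries 37 genes, and all of them had an entry in the count table, which holds 53465 genes in total. They were taken as the entries whose GENCODE M21 symbol begins with mt- and comprise 13 mRNA genes, 2 rRNA genes and 22 tRNA genes, all on chromosome M. The libraries came from whole livers of C57BL/6N mice. Mice of 3 months are called young, those of 12 months middle-aged and those of 18 months aged, and each age has 4 libraries, each labelled as 1 animal. The design text of the series gives 3 replicates per age, and the methods take the RNA-seq of the 3 ages from a public atlas, so the n of 4 used here rests on the sample labels. The study's methods describe the animals as healthy males on a standard diet, and no group carries a transgene or a treatment. The labels describe RNA extraction for 4 young and 4 old livers only, so how the middle-aged RNA was prepared is not given in the sources used here. The comparison of ages asks how steady-state RNA levels in the liver differ between young, middle-aged and aged mice. In whole tissue, fewer cells of a type and less RNA per cell cannot be told apart.

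Mitochondrial DNA is transcribed from both strands into long precursor RNAs, and most mRNAs and rRNAs are released when the tRNAs that lie between them are cut out. The mRNAs encode membrane subunits of respiratory complexes I, III and IV and of ATP synthase (complex V), which are assembled together with many nuclear-encoded subunits. The rRNAs and tRNAs serve the mitochondrial ribosome. Hepatocytes are rich in mitochondria, and the mitochondrial genome is transcribed by its own polymerase, POLRMT, with nuclear-encoded factors such as TFAM.

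Only some of these genes could be measured. Of the 37 genes, 10 had counts in all 12 libraries, 5 had counts in some libraries and 22 had none in any. The 10 measured genes were the mRNAs of 5 complex I subunits (mt-Nd1, mt-Nd2, mt-Nd4, mt-Nd5 and mt-Nd6), of cytochrome b of complex III (mt-Cytb) and of the catalytic subunit of complex IV (mt-Co1), both rRNAs (mt-Rnr1 and mt-Rnr2) and the proline tRNA mt-Tp. The mRNAs held 91.6% of the 9740345 counts on mitochondrial genes over all libraries, the rRNAs 8.43% and the tRNAs 0.00575%. The other 6 mRNAs had few counts or none. mt-Co2 had 18 counts in total, mt-Co3 had 4, and mt-Atp8, mt-Nd3 and mt-Nd4l had 0. mt-Atp6 had 337 counts, of which 266 were in aged 4 and 65 in young 2, with 0 to 2 in the other 10 libraries. A count of 0 in a library allows up to 3 counts, which is 0.285 to 0.369 CPM (gene counts scaled to a common library total), and this floor covers counting error only.

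The mRNA genes with few or no counts lie next to each other on the mitochondrial genome, between mt-Co1 and mt-Nd4 (GRCm38 chrM:7013-10173). The mouse nuclear genome holds copies of mitochondrial DNA, and 5 of these 6 genes have an annotated pseudogene of almost the same sequence on the minus strand of chromosome 1. Among GENCODE M21 transcripts, Gm28661 matched mt-Co2 over 681 bases, Gm10925 matched mt-Atp6 over 678 bases, Gm28437 matched mt-Co3 over 783 bases and Gm10222 matched mt-Nd4l over 294 bases, each with 100% identity. Gm28438 (chr1:24612775-24613119) matched mt-Nd3 over 345 bases with 1 mismatch. A read of 100 bases drawn from anywhere within mt-Co2, mt-Atp6, mt-Co3, mt-Nd3 or mt-Nd4l would have an exact second match in a nuclear transcript for 97.6% to 99.9% of its possible positions, and the values for 150 bases were 97.0% to 99.8%. For the measured mRNAs this share was 60.8% in mt-Nd4, 30.8% in mt-Co1, 3.19% in mt-Nd2 and 0% in mt-Nd1, mt-Nd5, mt-Nd6 and mt-Cytb. For mt-Atp8, which had no counts, the share was 0% too. Only annotated transcripts were searched, so a share of 0% does not show that the nuclear genome lacks a copy. mt-Atp8 shares its last 43 bases with the start of mt-Atp6. How multi-mapping reads and reads in 2 genes were treated is not given in the sources used here, and its part in the missing counts was not tested.

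In the reference sequences, the following stretches show how little separates a mitochondrial gene from its nuclear copy. They are written 5′ to 3′ on the coding strand, and capitals mark the single base that differs. The first pair is the start of mt-Nd3 (chrM:9459-9488, plus strand), which had no counts, and of Gm28438, which had 57 to 261 counts in every library. The substitution T3C, counted from 1 at the first base of the mitochondrial gene, was the only mismatch in the alignment.
mt-Nd3: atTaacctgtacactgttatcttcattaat
Gm28438: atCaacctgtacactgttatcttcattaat
The second pair is from the part of mt-Co1 (chrM:6390-6419, plus strand) that Gm29216 copies, with the substitution A1066T. Gm29216 had 93 counts in all libraries against 2734375 for mt-Co1.
mt-Co1: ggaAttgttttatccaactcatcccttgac
Gm29216: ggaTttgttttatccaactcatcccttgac
The third is the stretch that mt-Atp8 and mt-Atp6 share (chrM:7927-7969, plus strand), with the start codon of mt-Atp6 and the stop codon of mt-Atp8 in capitals.
mt-Atp8 and mt-Atp6: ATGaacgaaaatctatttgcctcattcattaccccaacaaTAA
The fourth is the whole of mt-Tp (chrM:15356-15422, minus strand), the only tRNA gene with counts in every library, with its anticodon in capitals.
mt-Tp: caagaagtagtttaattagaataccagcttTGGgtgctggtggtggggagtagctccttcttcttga

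The tRNA genes are 59 to 75 bases long and were almost absent from the counts. mt-Tp had 558 counts in total, mt-Tq (glutamine) had 1, mt-Tc (cysteine) had 1 and the other 19 had 0. All 3 tRNA genes with a count are among the 8 encoded on the minus strand, while the 14 on the plus strand had 0 of 14 with a count. Whether strand was used in counting is not given in the sources used here, and without it reads of mt-Nd6 and mt-Tp cannot be told apart from reads of the opposite strand.

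Levels were compared between genes as normalised counts (counts divided by a size factor for each library) per kb of gene length. mt-Co1 was the highest with a mean of 150653 per kb over the 12 libraries, followed by mt-Cytb with 149066. The order of these 2 genes was not stable, since mt-Co1 exceeded mt-Cytb in 8 of 12 libraries. mt-Nd2 came next with 97630 and lay below mt-Cytb in all 12 libraries. mt-Nd1 had a mean of 83834 per kb and was exceeded by mt-Nd2 in 11 of 12 libraries. mt-Nd6, the only mRNA gene on the minus strand, and mt-Nd4 had 55172 and 52664 and changed places between libraries, with mt-Nd6 above in 8 of 12. mt-Nd5 had 43592 per kb. The rRNA of the large ribosomal subunit, mt-Rnr2, had 31110 and that of the small subunit, mt-Rnr1, had 21922, below all 7 mRNAs in this mean. This is an order of counts and not of RNA amounts, since the study's methods do not say whether rRNA was removed from the libraries. Gene length was also not corrected for the 100-base windows shared with nuclear transcripts, which were 60.8% in mt-Nd4 and 30.8% in mt-Co1. mt-Tp was lowest with 736 per kb (345 to 2718). The plot of levels along the mitochondrial genome shows the gap between mt-Co1 and mt-Nd4 and the windows shared with nuclear transcripts below it.

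**Figure D1:**
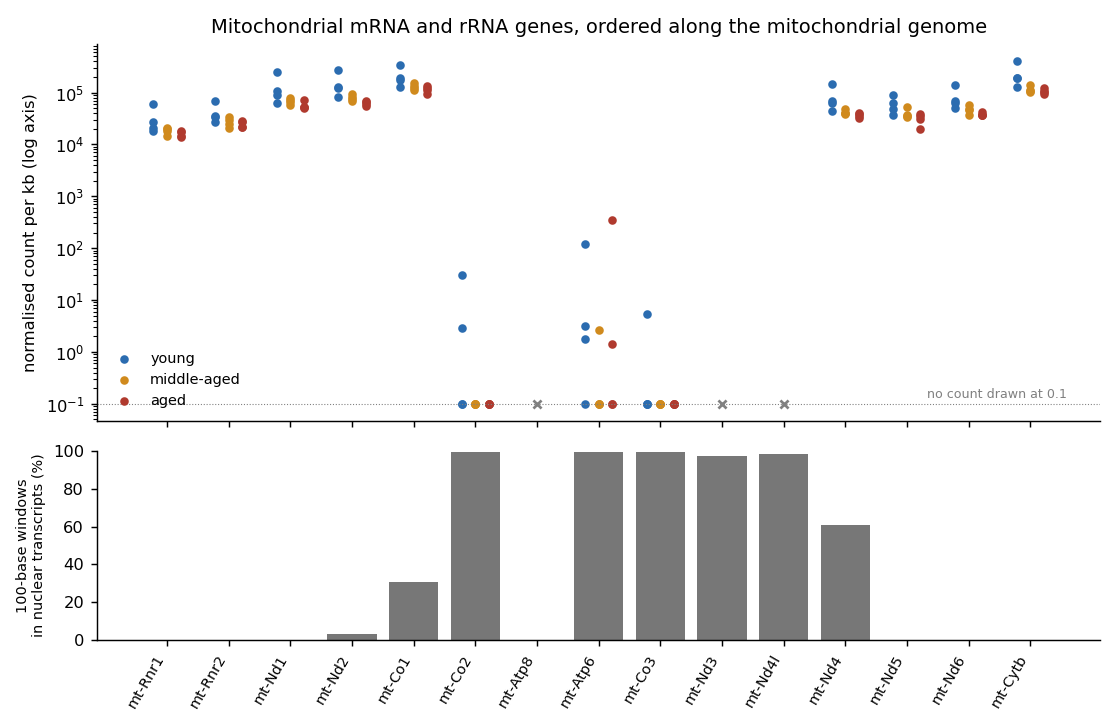
Normalised counts per kb (log axis) of the 15 mitochondrial mRNA and rRNA genes in genome order, 4 points per age (top), and the share of their 100-base windows found exactly in a nuclear transcript (bottom). Points on the dotted line and crosses are counts of 0. The 9 genes with counts in every library lie far above mt-Atp6, mt-Co2 and mt-Co3, and 5 of the 6 genes in the gap have 97.6% to 99.9% of their windows in nuclear transcripts.

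Library size did not differ much between libraries, with 8124312 to 10527159 gene counts each, but other features did. Genes with a count numbered 22284 in young 3, 19982 in middle-aged 1 and 16361 to 17563 in the other libraries. Spike-in RNA (synthetic transcripts added to a sample) took 1.59% to 10.6% of the counts, highest in young 2, and its median fraction was 5.11% for the young, 2.07% for the middle-aged and 2.66% for the aged group. For 13 of 18 spike-ins with a mean of at least 1000 counts, the share of spike-in counts in replicates 1 and 2 of all ages did not overlap that in replicates 3 and 4, so results are also given within each of these sets. Hepatocyte markers (6 of the 7 listed were found under their symbols) summed to 70638 to 87050 CPM in the young group, lowest in young 2. They summed to 85497 to 91276 CPM at middle age and to 84019 to 108431 CPM in the aged group, and all 6 were detected. On normalised counts the median log2 fold change of the 6 was -0.17 for aged against young livers. The sum of 5 muscle markers was 31.4 CPM in young 3 and 42.4 CPM in middle-aged 3, the highest of their groups. The sum of 4 adipocyte markers was also highest of its group in these libraries, at 2.83 and 24.1 CPM. Erythroid markers (Hba-a1, Hba-a2, Hbb-bs, Hbb-bt and Alas2) summed to 2421 to 7879 CPM in the young group, to 1388 to 5518 CPM at middle age and to 1031 to 2260 CPM in the aged group, with no marker at 0.

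The mitochondrial share of all gene counts was higher and more spread in young livers than in the older ones. It was 10.7%, 19.2%, 10.2% and 7.40% in young 1 to 4. In middle-aged 1 to 4 it was 6.45%, 7.13%, 7.48% and 9.03%. In aged 1 to 4 it was 5.48%, 6.23%, 6.89% and 7.53%. The ages overlapped: young 4 lay below aged 4 and below 2 middle-aged libraries, while young 2 was far above every other library. The 95% Wilson interval of each share was at most 0.0526 percentage points wide, so that counting error was small beside the differences between livers. Young livers had a mean of 11.9% ± 5.08 (SD, n = 4), or 9.42% ± 1.77 (n = 3) without young 2. Middle-aged livers had 7.52% ± 1.09 and aged livers 6.53% ± 0.877. On the log2 scale the mean difference in share was -0.78 for aged against young livers, -0.58 for middle-aged against young livers and -0.20 for aged against middle-aged livers. The comparisons with young livers share the same 4 young libraries. Within replicates 1 and 2, the differences from young were -1.29 (aged) and -1.08 (middle-aged). Within replicates 3 and 4 they were -0.27 and -0.079. Because the share is a sum over the members, no p-value is given for it.

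**Figure D2:**
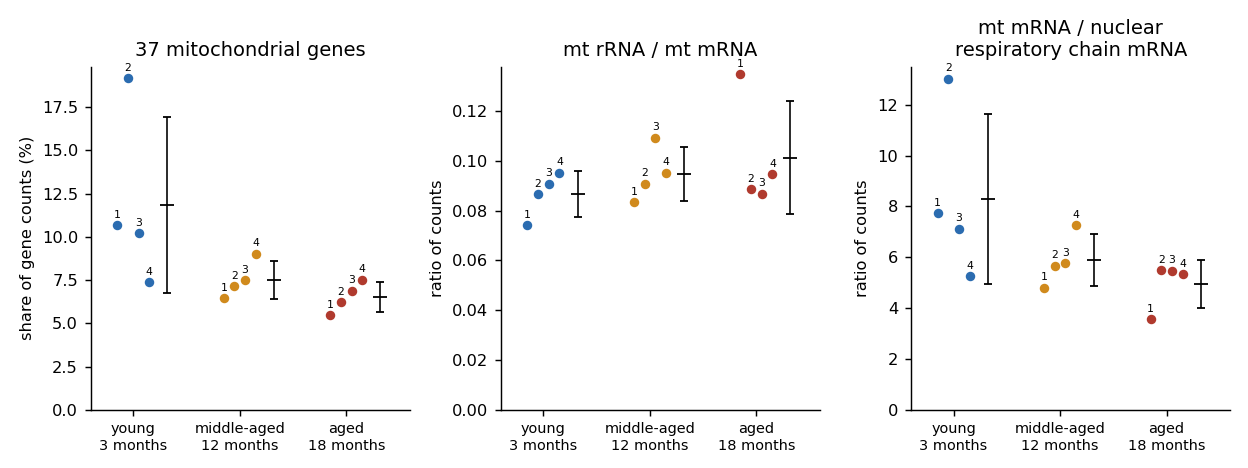
Share of gene counts on the 37 mitochondrial genes (left, in percent), ratio of mitochondrial rRNA to mRNA counts (middle) and ratio of mitochondrial mRNA counts to counts of 72 nuclear respiratory chain genes (right). Numbered points are libraries, and bars show the mean ± SD of 4 livers. Young 2 stands highest in share at 19.2%, and aged 1 stands highest in the rRNA to mRNA ratio at 0.135.

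Most of the measured mitochondrial genes were called lower in aged than in young livers, though the number called depended on the model and the libraries. Each gene was tested with the DESeq2 Wald test, fitted over all genes and libraries, with Benjamini-Hochberg adjustment over all genes tested. Of the 10 measured genes 7 passed an adjusted p of 0.05, all lower in aged livers, where 3.58% of all genes tested passed in either direction 1.87% as higher and 1.71% as lower. All 10 had a fold change below 0, with a median of -1.08 on the log2 scale against -0.0003 for all genes tested; with spike-in scaling 9 of the 10 turned higher in aged livers. Spike-in scaling moved the median of all genes to 1.16, so that the members' median of 0.32 differed from it by -0.85. Aged and young livers did not overlap for 5 of the 10 genes, all lower, where 3.69% of all genes tested were lower and 3.84% higher without overlap.

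Among the complex I genes, mt-Nd2 had the lowest adjusted p. Its normalised counts were 133422, 279489, 128713 and 84142 in young 1 to 4 and 58149, 67867, 61066 and 71094 in aged 1 to 4. Every aged library lay below every young one, and young 2 was highest. mt-Nd2 fell by 1.28 ± 0.34 (SE) on the log2 scale, with a DESeq2 adjusted p of 0.00874. mt-Nd4 had 93317, 197031, 87331 and 59702 in young livers and 44025, 52870, 49637 and 56521 in aged livers, again without overlap, although young 4 came close to aged 4. It fell by 1.11 ± 0.34 (DESeq2 adjusted p = 0.0346). mt-Nd6, encoded on the opposite strand from the others, had 35237, 73914, 31872 and 26064 in young livers and 19095, 19207, 19525 and 22213 in aged livers. Its groups did not overlap and it fell by 1.06 ± 0.33 (DESeq2 adjusted p = 0.0368). mt-Nd5 had 116552, 162428, 87895 and 68659 in young livers and 35792, 56879, 65037 and 69872 in aged livers, so that aged 4 exceeded young 4. It fell by 0.94 ± 0.25 (DESeq2 adjusted p = 0.0112). mt-Nd1 had 104532, 235345, 85927 and 58799.5 in young livers and 48511, 49754, 51182 and 67235 in aged livers. Aged 4 exceeded young 4 here too, and the difference of -1.16 ± 0.40 did not pass the test (DESeq2 adjusted p = 0.0805). With spike-in scaling all 5 of these genes had positive fold changes, from 0.13 for mt-Nd2 to 0.39 for mt-Nd5.

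Cytochrome b of complex III carries electrons within the membrane. mt-Cytb had 217619, 460725, 213890 and 144656 in young livers and 105658, 117412, 120074 and 142242 in aged livers. The groups did not overlap, but young 4 and aged 4 were within a few percent of each other. mt-Cytb fell by 1.10 ± 0.33 (DESeq2 adjusted p = 0.0339; 0.31 with spike-in scaling). mt-Co1, whose product reduces oxygen in complex IV, had 288156, 523823, 263891 and 198416 in young livers and 142400, 172690, 190121 and 209084 in aged livers. A single aged library, aged 4, exceeded young 4, and mt-Co1 fell by 0.84 ± 0.23 (DESeq2 adjusted p = 0.0169; 0.54 with spike-in scaling).

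Neither rRNA passed the test. mt-Rnr1 had 20164, 56551, 25292 and 17689 in young livers and 17635, 13836, 13362 and 16691 in aged livers, without overlap but with aged 1 close to young 4. Its difference was -0.96 ± 0.38 (DESeq2 adjusted p = 0.141). mt-Rnr2 had 53128, 110641, 56375 and 43305 in young livers and 43499, 33755, 34938 and 43705 in aged livers, so that 2 aged libraries exceeded young 4. Its difference was -0.76 ± 0.24 (DESeq2 adjusted p = 0.0532). The tRNA mt-Tp was low, with 81.7, 182, 42.7 and 32.2 in young livers and 23.1, 30.8, 23.6 and 34.9 in aged livers, and the groups overlapped. It fell by 1.59 ± 0.45 (DESeq2 adjusted p = 0.0209) and was the only measured gene still lower, by -0.13, with spike-in scaling.

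**Figure D3:**
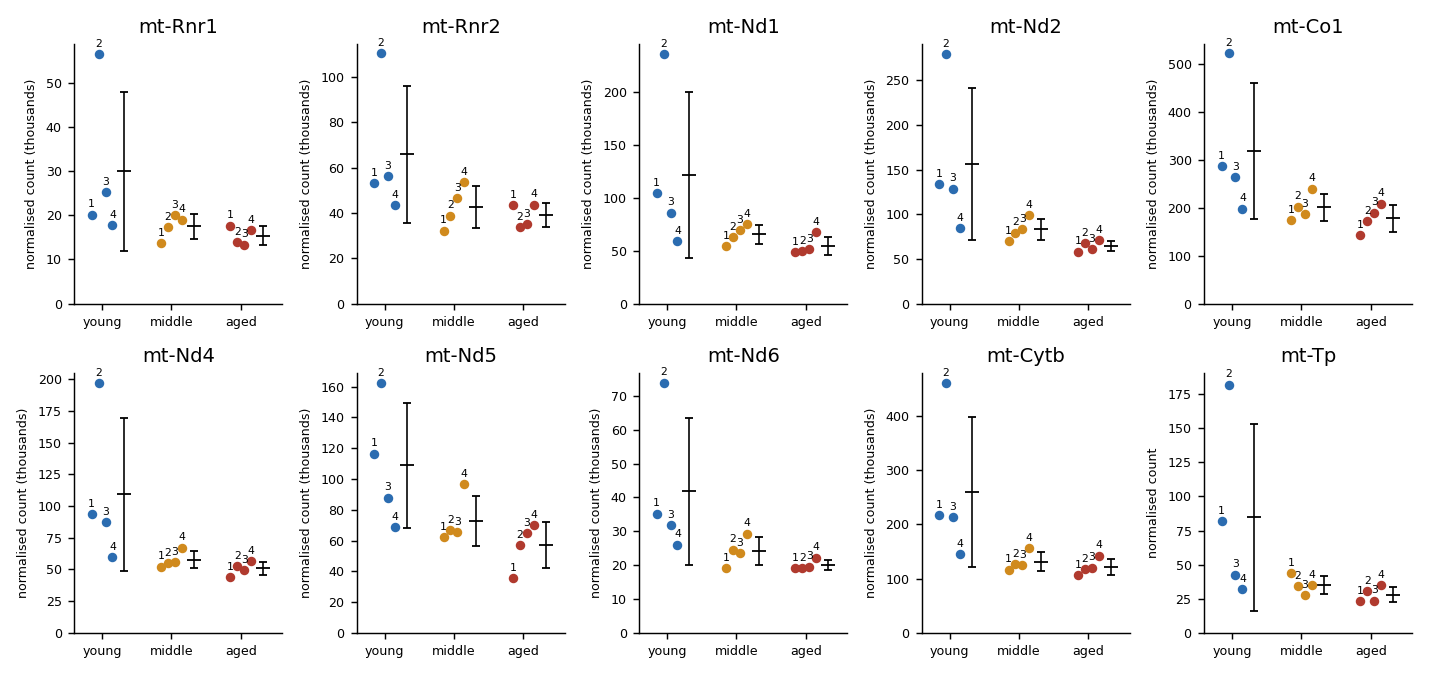
Normalised counts of the 10 measured mitochondrial genes in the 12 livers (each axis in the unit printed on it). Numbered points are libraries by replicate number, and bars show the mean ± SD of 4 livers. Young 2 is the highest point in all 10 panels, and aged 1 is the lowest in 7 of them.

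Young 2 was the highest of the 12 libraries for all 10 genes, by 1.39 times (mt-Nd5) to 2.25 times (mt-Nd1) over the next library. Aged 1 was the lowest for 7 of the 10. Without young 2, the DESeq2 test called 5 genes, the median of the 10 was -0.65, and mt-Nd2 differed by -0.84 ± 0.16 (DESeq2 adjusted p = 8.82e-05). mt-Nd6 (-0.63), mt-Nd4 (-0.66), mt-Cytb (-0.66) and mt-Nd1 (-0.62) were the other genes called without it. In young 2, spike-in share, erythroid markers and the nuclear-retained RNAs Malat1 and Neat1 were also highest of all libraries, and their part in the mitochondrial levels was not tested. Malat1 and Neat1 summed to 504 CPM in young 2, 142 to 190 CPM in the other young libraries, 53.1 to 123 CPM at middle age and 85.5 to 225 CPM in the aged group, with neither at 0. On median-of-ratios scaling Neat1 differed from young by -0.84 in aged (DESeq2 adjusted p = 0.0312) and -1.08 in middle-aged livers (0.00138), and Malat1 had no adjusted p. Of the erythroid markers 2 of 5 were called lower in aged than in young livers, where 1.71% of all genes tested were called lower. They were Hbb-bs (-1.67, DESeq2 adjusted p = 0.0498) and Alas2 (-0.60, 0.0255), and the median of the 5 was -1.83.

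The number of genes called depended on the libraries and the model. It was 0 without aged 3, 2 without aged 2, 3 without aged 1 and 4 without aged 4, and 6 to 10 without a single young library other than young 2. It was 1 with edgeR's quasi-likelihood test, 2 with the replicate block and 1 with the 2 replicate sets as a term. Within replicates 1 and 2 alone 9 genes were called with a median of -1.58, and within replicates 3 and 4 alone 3 were called with a median of -0.40. The count over the whole table moved as well. It was 484 with all libraries, 258 without young 2, 237 without aged 3 and 1291 without aged 1. With edgeR it was 172, and within replicates 1 and 2 it was 137.

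In middle-aged livers, 1 of the 10 genes was called against young livers, where 6.41% of all genes tested were called, 3.51% as higher and 2.9% as lower. All 10 fold changes were below 0, with a median of -0.84 against 0.0065 for all genes tested; with spike-in scaling, which moved the median of all genes to 1.47, all 10 were above 0 with a median of 0.87. The gene called was mt-Cytb. Its normalised counts in middle-aged 1 to 4 were 116513, 126803, 124634 and 156147, and middle-aged 4 exceeded young 4. It fell by 0.98 ± 0.33 (DESeq2 adjusted p = 0.0487; 0.71 with spike-in scaling). This call did not hold with TMM factors, with edgeR, with size factors computed without the 37 genes, or without any 1 of middle-aged 1, 2 or 3, each of which left 0 genes called. mt-Cytb also lost its call without young 3 (DESeq2 adjusted p = 0.0651), where mt-Tp was called instead, and without middle-aged 4 (0.0632), where mt-Co1 was. Without young 4 the count was 9 genes. mt-Nd2 had 70114, 79414, 83702 and 98907 in middle-aged livers, and mt-Nd4 had 52274, 55239, 55770 and 67139. Their differences from young, -0.91 ± 0.34 and -0.92 ± 0.34, did not pass the test (DESeq2 adjusted p = 0.0743 and 0.0718). The groups overlapped for all 10 genes, where 7.96% of all genes tested were lower and 7.99% higher without overlap. Within replicates 1 and 2 the median was -1.38 with 9 genes called, and within replicates 3 and 4 it was -0.14 with 0 called, where mt-Nd5 was 0.039.

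No mitochondrial gene was called between aged and middle-aged livers. DESeq2 called 0 of the 10, where 1.14% of all genes tested were called, 0.537% as higher and 0.606% as lower. The groups overlapped for all 10 genes, while 3.26% of all genes tested were higher and 3.28% lower without overlap. None of the 10 had an unadjusted p under 0.05, and edgeR called 0. The median was -0.23, against 0.005 for all genes tested, and the range was -0.36 (mt-Nd2) to -0.11 (mt-Cytb). The sign of these fold changes was below 0 with spike-in scaling too, with a median of -0.56 beside a median of -0.31 for all genes. Their standard errors were 0.23 to 0.46 with 4 livers per age. Across the 3 ages together, 8 of the 10 genes passed DESeq2's likelihood ratio test, where 6.96% of all genes tested were called. mt-Nd2 had the lowest adjusted p (0.00986), and mt-Nd1 (0.087) and mt-Rnr1 (0.154) were not called.

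**Figure D4:**
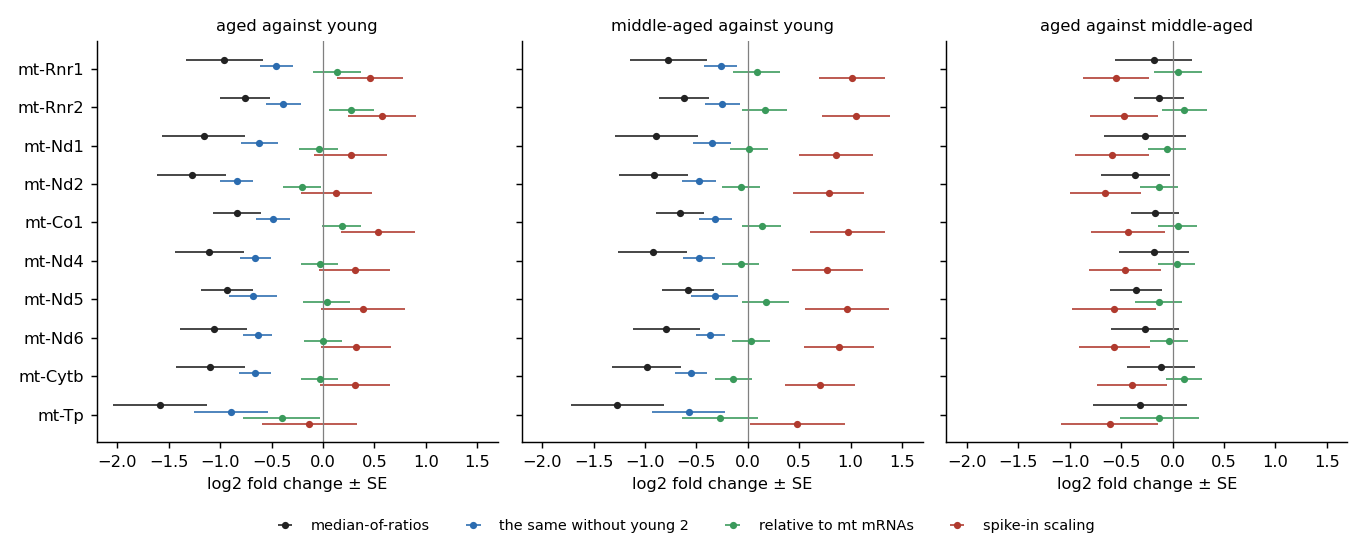
Log2 fold change ± SE of the 10 measured genes in the 3 pairs of ages, with median-of-ratios scaling, the same without young 2, relative to the mitochondrial mRNAs and with spike-in scaling. With median-of-ratios scaling all points lie below 0 (medians -1.08, -0.84 and -0.23), while with spike-in scaling 9 of 10 and 10 of 10 lie above 0 in the comparisons with young livers.

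Within the mitochondrial counts, the highest share of a gene over the 12 libraries was 1.17 times its lowest for mt-Nd4 and mt-Nd6, 1.66 times for mt-Nd5, 1.69 and 1.80 times for mt-Rnr2 and mt-Rnr1 and 2.22 times for mt-Tp. mt-Co1 made up 24.9% to 31.4% of the mitochondrial counts over the 12 libraries, mt-Cytb 18.4% to 21.9% and mt-Nd2 10.1% to 13.3%. The share of mt-Nd2 was 12.0% to 13.3% in the young group, 11.8% to 12.4% at middle age and 10.1% to 11.6% in the aged group, so that young and aged livers did not overlap. The share of mt-Cytb was 20.5% to 21.9% in the young group, 18.4% to 19.6% at middle age and 19.8% to 20.5% in the aged group, lowest in middle age. mt-Nd6 stayed within 3.18% to 3.72%, and mt-Nd5 ranged from 6.95% (aged 1) to 11.6% (middle-aged 4). When size factors were taken from the mitochondrial mRNAs, so that a fold change is relative to them, DESeq2 called 0 of the 10 genes in each pair of ages, and 0 had an unadjusted p under 0.05. The 7 mRNAs counted in every library set this scale and are among the 10 genes. A median near 0 was therefore fixed in advance, and only differences among the members can be read from these values. The fold changes then lay between -0.40 (mt-Tp) and 0.28 (mt-Rnr2) for aged against young. For mt-Rnr2 the SE was 0.22, and for mt-Nd2 the value was -0.20 ± 0.18.

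**Figure D5:**
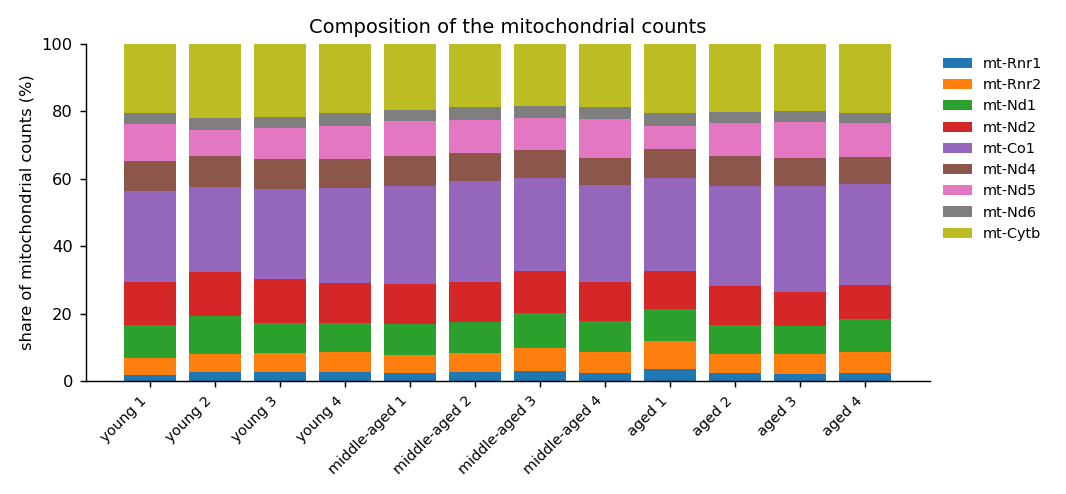
Share of each mitochondrial gene in the mitochondrial counts of the 12 libraries, in percent, stacked in genome order (mt-Tp, under 0.01%, is not drawn). mt-Co1 holds 24.9% to 31.4% and mt-Cytb 18.4% to 21.9%, and aged 1 has the widest rRNA bands.

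The ratio of rRNA to mRNA counts was 0.0741, 0.0865, 0.0908 and 0.0952 in young 1 to 4. It was 0.0835, 0.0908, 0.109 and 0.0952 at middle age and 0.135, 0.0887, 0.0868 and 0.0946 in aged livers. The ages overlapped, and aged 1 stood above all other libraries, with rRNA at 11.9% of its mitochondrial counts. The mean log2 ratio in aged livers was 0.21 above that in young livers, and 0.060 above it without aged 1.

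With median-of-ratios scaling, most nuclear-encoded partners of the mitochondrial mRNAs were also lower in older livers, and some were called. Complexes I, III, IV and V were represented by 72 nuclear genes on lists chosen with earlier results of these data known. Of these, 6 of 72 tested were called lower and 0 higher in aged than in young livers. Over all genes tested 1.71% were called lower. The median of the 72 was -0.27, and their fold changes ran from -0.77 to -0.037. Aged livers lay below young ones without overlap for 10 of 72, where 3.69% of all genes tested did. With spike-in scaling the named examples were all higher. The ATP synthase beta subunit Atp5b had 14290 to 15206 in young and 11952 to 12940 in aged livers, without overlap. It fell by 0.22 ± 0.047 (DESeq2 adjusted p = 0.000549; 0.91 with spike-in scaling). Atp5g2 and Atp5g1, which encode the same ring subunit of ATP synthase, fell by 0.77 ± 0.20 (DESeq2 adjusted p = 0.00879) and 0.39 ± 0.11 (0.0221), and were 0.48 and 0.77 with spike-in scaling. Against young livers, middle-aged livers had 15 of 72 called lower and 0 higher, where 2.9% of all genes tested were called lower. The median was -0.32, in a range of -0.63 to 0.047. Middle-aged livers lay below young ones without overlap for 41 of 72, where 7.96% of all genes tested did. Atp5g1 (-0.47 ± 0.11, DESeq2 adjusted p = 0.00169), the complex I subunit Ndufb5 (-0.31 ± 0.085, 0.00889) and the complex IV subunit Cox7a2 (-0.50 ± 0.14, 0.00959) had the lowest adjusted p there, and were 1.01, 1.17 and 1.01 with spike-in scaling. Aged against middle-aged, DESeq2 called 0 of 71, and 0 had an unadjusted p under 0.05. With edgeR the adjusted p for aged against young was 0.173 for Atp5b, 0.0576 for Atp5g2 and 0.0953 for Atp5g1, and for middle-aged against young it was 0.0694 for Ndufb5 and 0.0605 for Cox7a2, so that these calls did not hold. Atp5b also lost its call with total gene counts (-0.10, DESeq2 adjusted p = 0.321), with only the 2 groups (0.065) and with the replicate block (0.0542).

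Counts on mitochondrial mRNAs exceeded those on these 72 nuclear genes in every library. The ratio was 7.75, 13.03, 7.13 and 5.25 in young 1 to 4, 4.81, 5.67, 5.77 and 7.26 in middle-aged 1 to 4 and 3.55, 5.50, 5.47 and 5.34 in aged 1 to 4. Young and aged livers overlapped through young 4, and aged 1 was lowest.

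Nuclear genes that transcribe, process, stabilise and maintain mitochondrial RNA and DNA formed a list of 61, of which Slirp had no counts. DESeq2 called 0 of 60 tested in aged against young livers, where 3.58% of all genes tested were called, with a median of -0.014, and edgeR also called 0. The count was 44 with spike-in scaling and 29 when scaled to mitochondrial mRNAs, which both shift all genes upward. It was 2 with total gene counts and 4 without aged 1. It was 1 within replicates 1 and 2 alone and 1 within the other replicate set. An unadjusted p under 0.05 was seen for 9, of which 7 were lower and 2 higher. The share of all genes tested at that threshold was not computed, so nothing is read from this count or its direction. The polymerase Polrmt had 177 to 245 in young and 192 to 232 in aged livers, a difference of -0.033 ± 0.12 (DESeq2 adjusted p = 0.941; 1.08 with spike-in scaling). Tfam, which packages mitochondrial DNA and starts transcription, had 349 to 425 in young and 406 to 508 in aged livers, a difference of 0.23 ± 0.10 (adjusted p by DESeq2 = 0.205), and it passed with total gene counts (0.34, adjusted p by DESeq2 = 0.0419). Lrpprc, which stabilises mitochondrial mRNAs, differed by -0.052 ± 0.081 (adjusted p by DESeq2 = 0.838; 1.09 with spike-in scaling). The coactivator Ppargc1a had 125, 99.3, 47.4 and 47.8 in young 1 to 4 and 44.2, 27.0, 52.4 and 58.1 in aged 1 to 4. Its difference was -0.81 ± 0.34 (adjusted p by DESeq2 = 0.181), and its groups overlapped. Within replicates 1 and 2 alone Ppargc1a was called lower (-1.66, adjusted p by DESeq2 = 0.0107). Within the other replicate set its difference was 0.21 (adjusted p by DESeq2 = 0.967).

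In middle-aged against young livers 1 of 58 of these genes was called, where 6.41% of all genes tested were called, and 55 with spike-in scaling. It was the related coactivator Ppargc1b. It had 22.3, 28.0, 23.7 and 29.3 in young, 54.6, 51.2, 48.6 and 80.2 at middle age and 33.1, 30.8, 24.5 and 17.0 in the aged group, so that middle-aged livers lay above both other ages without overlap. Ppargc1b rose by 1.18 ± 0.29 from young to middle age (DESeq2 adjusted p = 0.00278) and fell by 1.16 ± 0.28 from middle age to aged (DESeq2 adjusted p = 0.00763), where 1 of 55 genes was called. The second call did not hold with the replicate block (DESeq2 adjusted p = 0.0582), with edgeR (0.106), without middle-aged 4 (0.165), without aged 4 (0.113) or within either replicate set. The first did not hold within replicates 1 and 2 (0.51). Of the 8 fits that left out 1 library of the groups compared, DESeq2 gave Ppargc1b an adjusted p in 5 for the first call. For the second call it gave one in 6. The median of the list was -0.083 and 0.056 in these comparisons. Polrmt, Tfam, Lrpprc and Ppargc1a had -0.17, 0.20, 0.0044 and -0.17 in middle-aged against young livers, with DESeq2 adjusted p of 0.212 or more.

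The nuclear copies added little to the mitochondrial total. Gm28438 was the only copy whose mean normalised count reached 50. It had 138, 332, 127 and 79.1 in young 1 to 4, 76.5, 102, 103 and 57.1 in middle-aged 1 to 4 and 141, 86.7, 77.8 and 76.9 in aged 1 to 4, with young 2 highest as for the mitochondrial genes. Its difference was -0.82 ± 0.38 in aged against young livers (DESeq2 adjusted p = 0.235) and -0.99 ± 0.38 in middle-aged against young livers (DESeq2 adjusted p = 0.0879), and it was 0.57 and 0.84 with spike-in scaling. Reads of mt-Nd3 and Gm28438 cannot be told apart except at the base shown above. Gm13340, a copy of mt-Co1 on chromosome 2 with 97.6% identity, had 286 counts in all libraries.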

How the data were processed

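Total RNA from 12 livers, 4 per age and 1 animal per library, was analysed as the deposited count table, which holds raw read counts per gene from the authors and 92 spike-in transcripts. The submitters' processing notes name STAR 2.5.2b, SAMtools 1.9, featureCounts, R 3.6.3, edgeR 3.28.1, DESeq2 1.26.0 and the builds mm10 and GRCm38, without role or order. Annotation, strand setting and treatment of multi-mapping reads are not given in the sources used here. Of the 53465 gene identifiers, 53360 were found in GENCODE M21. No per-sample column was left unused.

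Groups follow the sample titles. Genes with a count in any library (28449) were fitted in DESeq2 1.42.0 (R 4.3.3) over all 12 libraries with age as the term, spike-ins left out and default independent filtering. Pairs of ages were compared by the Wald test and the 3 ages by the likelihood ratio test, two-sided, at a Benjamini-Hochberg adjusted p of 0.05. The alternatives were edgeR 4.0.16 and other scalings, filters, terms and libraries. Depth was 8124312 to 10527159 gene counts per library. Intervals on shares are 95% Wilson intervals and, like the floor of 3 counts, cover counting error only. Copies were found with BLAST 2.17.0 among GENCODE M21 transcripts only (at least 95% identity over at least 50 bases). Tables and plots used Python 3.11.15, pandas 2.3.3, SciPy 1.17.1 and matplotlib 3.10.9. On simulated counts of 25004 genes for aged against young livers, 88% of genes changed 2-fold and 100% of those changed 4-fold were recovered, and 9.62% of calls were false.

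The members and lists were chosen with earlier results of these data known. Named were all mitochondrial mRNAs and rRNAs, tRNAs whose mean normalised count reached 50 or that were called, Polrmt, Tfam, Lrpprc and Ppargc1a, other called genes for mitochondrial gene expression (up to 6 per comparison), up to 3 called respiratory subunits per comparison by adjusted p, and nuclear copies with a mean of at least 50. mt-Tq, mt-Tc and the other copies were named after their values were seen.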

Additional observations from a re-analysis of the deposited data

Results flagged for a closer look

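Within 4 libraries of an age, 1 library stood far from the other 3 in 11 of 78 groups examined with Dixon's test. Chance would single out about 1 in 20, or 3.9, if the groups were independent and their values normally distributed. The mitochondrial genes vary together between libraries and mt-Atp6 was near 0 in most of them, so 11 cannot be set against 3.9. The ratio of rRNA to mRNA counts was 0.135 in aged 1 and 0.0868 to 0.0946 in the other aged livers. The ratio of mitochondrial mRNA to nuclear respiratory chain counts was 3.55 in aged 1 and 5.34 to 5.50 in the others. Aged 1 also had 140.5 normalised counts of the nuclear copy Gm28438, against 76.9 to 86.7. In aged 4, mt-Nd1 had 67235 normalised counts against 48511 to 51182, and mt-Nd6 had 22213 against 19095 to 19525. In middle-aged 4, mt-Nd5 had 96594 against 62140 to 66924, and Ppargc1a had 90.2 against 63.6 to 66.5. In young 2, Atp5g2 had 348 against 188 to 205.

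Counts of mt-Atp6 came almost wholly from single libraries. They were 65 in young 2 and 0 to 2 in the other young livers. In aged 4 there were 266, and 0 to 1 in the other aged livers. Middle-aged 2 had 2 and the other middle-aged livers 0.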

How the results depend on the processing

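For the 10 measured genes, 77 of 130 values for aged against young livers kept both their direction and their side of the threshold under the settings other than leaving out a library, 36 lost the call, 4 gained it and 13 turned. For middle-aged against young livers the numbers were 89, 10, 13 and 17, and for aged against middle-aged livers 123 held and 7 turned. Leaving out 1 library turned none of these genes. Values whose adjusted p DESeq2 left missing are not counted. Scaling to mitochondrial mRNAs moved the median of all genes to 0.84, 0.62 and 0.22 in the 3 pairs, and spike-in scaling moved it to 1.16, 1.47 and -0.31, so values that turned under these scalings are to be read against those medians. Other causes were not tested.

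The count of mitochondrial genes called for aged against young livers (7) was 1 with edgeR, 0 when scaled to mitochondrial mRNAs, 0 with spike-in scaling, 4 without independent filtering, 2 with only the 2 groups, 1 with the spike-in set as a term and 3 within replicates 3 and 4. For middle-aged against young livers (1) it was 0 with edgeR, TMM factors, size factors without the 37 genes, scaling to mitochondrial mRNAs, no independent filtering, only the 2 groups, the set as a term, and within replicates 3 and 4. It was 4 with total gene counts, 8 (all higher) with spike-in scaling and 9 within replicates 1 and 2. For the 3 ages (8) it was 1 with edgeR, 0 scaled to mitochondrial mRNAs, 4 with spike-in scaling, 5 without independent filtering, 1 with the set as a term and 2 within replicates 3 and 4. Leaving out 1 library gave 0 to 10, 0 to 9 and 2 to 10. The counts of 0 when scaled to mitochondrial mRNAs were largely fixed in advance, since measured genes set that scale.

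Same-numbered libraries did not deviate together over 8888 genes (correlations from -0.30 to 0.16), so the numbers were not taken as pairs of livers. The spike-ins do set replicates 1 and 2 of all ages apart from 3 and 4, which these correlations do not address. With the replicate block, 2 mitochondrial genes were called for aged against young livers (mt-Nd6, DESeq2 adjusted p = 0.000524, and mt-Tp, 0.0379), 1 for middle-aged against young (mt-Nd6, 0.0373, while mt-Cytb lost its call at 0.265), 0 for aged against middle-aged and 1 for the 3 ages. Each age holds every replicate number, so the block could not change the log2 differences in share (-0.78, -0.58 and -0.20).

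The log2 difference in share was -1.29 (aged) and -1.08 (middle-aged) against young livers within replicates 1 and 2, and -0.27 and -0.079 within replicates 3 and 4. Without 1 library, Polrmt for aged against young ranged from -0.11 to 0.030, and Lrpprc and Ppargc1a for middle-aged against young from -0.038 to 0.049 and from -0.35 to 0.14. The log2 rRNA to mRNA difference was 0.45 and -0.038 within these sets for aged against young, and 0.33 and -0.17 for aged against middle-aged.

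Scaled to mitochondrial mRNAs, the value for aged against young livers turned to mt-Rnr1 0.14, mt-Rnr2 0.28, mt-Co1 0.18, mt-Nd5 0.037, Polrmt 0.76, Lrpprc 0.76, Ppargc1a 0.14, Atp5b 0.61, Atp5g2 0.17, Atp5g1 0.50 and Gm28438 0.35. Scaled to mitochondrial mRNAs, the value for middle-aged against young livers turned to mt-Rnr1 0.085, mt-Rnr2 0.16, mt-Nd1 0.013, mt-Co1 0.13, mt-Nd5 0.17, mt-Nd6 0.031, Polrmt 0.40, Ppargc1a 0.57, Atp5g1 0.20, Ndufb5 0.33 and Cox7a2 0.18. Scaled to mitochondrial mRNAs, the value for aged against middle-aged livers turned to mt-Rnr1 0.052, mt-Rnr2 0.11, mt-Co1 0.047, mt-Nd4 0.039 and mt-Cytb 0.11. With total gene counts, the value for aged against young livers turned to Polrmt 0.076 and Lrpprc 0.063. With spike-in scaling, the value for aged against young livers turned to mt-Rnr1 0.46, mt-Rnr2 0.58, mt-Nd1 0.27, mt-Nd2 0.13, mt-Co1 0.54, mt-Nd4 0.31, mt-Nd5 0.39, mt-Nd6 0.32, mt-Cytb 0.31, Polrmt 1.08, Lrpprc 1.09, Ppargc1a 0.31, Atp5b 0.91, Atp5g2 0.48, Atp5g1 0.77 and Gm28438 0.57. With spike-in scaling, the value for middle-aged against young livers turned to mt-Rnr1 1.01, mt-Rnr2 1.05, mt-Nd1 0.86, mt-Nd2 0.79, mt-Co1 0.97, mt-Nd4 0.77, mt-Nd5 0.96, mt-Nd6 0.89, mt-Cytb 0.71, mt-Tp 0.48, Polrmt 1.27, Ppargc1a 1.25, Atp5g1 1.01, Ndufb5 1.17, Cox7a2 1.01 and Gm28438 0.84. Within replicates 1 and 2, the value for aged against young livers turned to Polrmt 0.17. Within replicates 1 and 2, the value for aged against middle-aged livers turned to mt-Rnr1 0.029 and mt-Rnr2 0.12. Within replicates 3 and 4, the value for aged against young livers turned to Ppargc1a 0.21. Within replicates 3 and 4, the value for middle-aged against young livers turned to mt-Nd5 0.039, Lrpprc -0.028 and Ppargc1a 0.68. Without young 1, the value for middle-aged against young livers turned to Ppargc1a 0.14. Without young 2, the value for middle-aged against young livers turned to Lrpprc -0.029. Without young 3, the value for aged against young livers turned to Polrmt 0.03. Without young 3, the value for middle-aged against young livers turned to Lrpprc -0.0066. Without middle-aged 2, the value for middle-aged against young livers turned to Lrpprc -0.038. Without aged 3, the value for aged against young livers turned to Polrmt 0.012.

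Over all genes, 484, 727, 117 and 865 were called in the 3 pairs and the 3 ages. The counts were 172, 280, 13 and 234 with edgeR, 9208, 11701, 4 and 10572 with spike-in scaling, and 137, 251, 34 and 270 within replicates 1 and 2. Leaving out 1 library gave 237 to 1291, 345 to 840, 45 to 198 and 496 to 1637. Other settings that moved a count over 1.5 times were scaled to mitochondrial mRNAs (6588 for aged against young, 2 for aged against middle-aged, 3029 for 3 ages), total gene count (787 for aged against young), no independent filtering (321 for aged against young, 443 for middle-aged against young, 62 for aged against middle-aged), only the 2 groups compared (290 for aged against young, 1166 for middle-aged against young), replicate block (385 for middle-aged against young, 426 for aged against middle-aged, 451 for 3 ages), replicates 3 and 4 alone (305 for middle-aged against young, 307 for aged against middle-aged).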
